A study of Mus musculus with 29 samples.

Results

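Hox genes were followed in RNA-seq of mouse digits as the set of all 39 protein-coding genes named Hoxa, Hoxb, Hoxc or Hoxd plus a number: 11 in cluster A on chromosome 6, 10 in cluster B on chromosome 11, 9 in cluster C on chromosome 15 and 9 in cluster D on chromosome 2. All 39 were present among the 24411 gene symbols of one count table and, through their Ensembl identifiers, among the 55487 genes of the other. Detected here means 10 or more counts in at least 3 libraries of a table.

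The 29 libraries came from distal digit tissue of the left hindlimb with the nail taken off. In the time course, mice had sham surgery or spared nerve injury (SNI), a lesion of the sciatic nerve that cuts its tibial and its common peroneal branch, and the digit was amputated through the third phalanx 5 days later. Sham digits were collected 7 (n = 3), 14 (n = 3) and 21 (n = 2) days after amputation, and SNI digits 7 (n = 3), 14 (n = 3) and 21 (n = 3) days after it. The second table, called the amputation set here, held only SNI mice, so its controls carry the nerve injury too: amputated digits at day 7 (n = 3) and day 14 (n = 3), and digits labelled as without amputation at day 7 (n = 3) and day 14 (n = 3). The time and tissue labels of the unamputated groups still speak of days after amputation and of regenerate tissue, and the treatment label was followed. The sources used here do not give the strain, age or sex of the mice.

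Hox genes code homeodomain transcription factors that give cells their position along the body axis and the limb. Within a cluster they lie in order of their paralog numbers, from 1 at the 3′ end to 13 at the 5′ end, and genes of the 5′ end are used towards the tail and towards the tip of a limb. In the embryo Hoxa13 and Hoxd13 pattern the hand and foot, genes of paralog groups 9 to 11 the more proximal limb, and adult fibroblasts keep Hox patterns of the place they came from.

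Total counts lay between 35654192 and 56809440 per library in the time course and between 31274245 and 43315729 in the amputation set. Levels are CPM, counts scaled to a common library size, here the TMM-adjusted size, and levels of different genes are compared only per kb of exon. Sham day 21 replicate 1 and SNI day 7 replicate 2 stood apart, with TMM factors of 0.633 and 0.761 against 0.943 or more elsewhere. The summed level of all 39 Hox genes was 215 CPM and 159 CPM in them, within a range of 159 to 272 CPM over the time course, and 257 to 317 CPM in the amputation set.

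A total of 35 of the 39 genes were detected in each table, and the same 4 were not: Hoxb1, Hoxb13, Hoxd1 and Hoxd3. Hoxb1, a hindbrain gene, reached at most 6 counts in any library, Hoxd3 at most 4 and Hoxb13, known from tail and prostate, at most 3. Hoxd3 shares 53.1% of its exon bases with Gm28230 on the same strand, so reads of the pair may not be fully told apart. Hoxd1 had 1 count in 1 library of the time course and 0 counts in all 12 libraries of the amputation set, where a count of 0 allows a level of up to 0.0674 to 0.0973 CPM per library (3 counts, counting error only). All 11 genes of cluster A and all 9 of cluster C were detected, against 8 of 10 in cluster B and 7 of 9 in cluster D. Hoxb1, Hoxd1 and Hoxd3 lie at the 3′ ends of their clusters and Hoxb13 at a 5′ end; Hoxb2, Hoxb9, Hoxd4 and Hoxd13, the detected genes nearest to those ends, had counts in every library.

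Per kb of exon, the highest level in the time course was that of Hoxc13, with a mean of 17.9 CPM per kb, ahead of Hoxa9 with 13.9, Hoxc10 with 6.47 and Hoxd13 with 4.79. The amputation set gave the order Hoxc13 with 23.7 CPM per kb, Hoxa9 with 16.4, Hoxa7 with 10.1 and Hoxc10 with 8.89. With the longest transcript as the length in place of all exons, Hoxa9 came first in both tables, with 24.1 and 28.4 CPM per kb, so the order of the first pair depends on the gene model. Hoxc13 is known for its part in hair and nail, where it switches on hard keratin genes. Hoxc10 belongs to the genes used in the embryonic hindlimb.

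**Figure D1:**
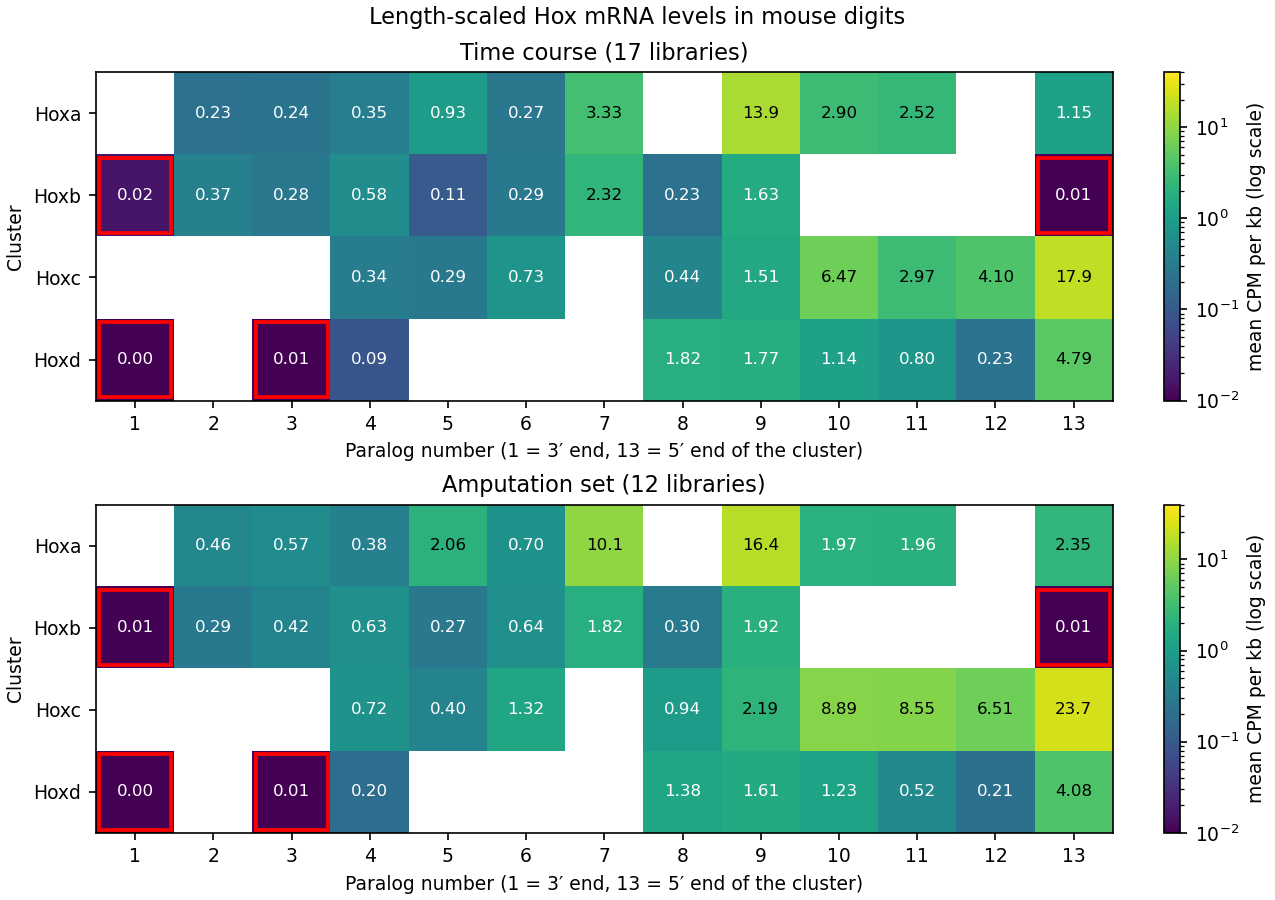
Mean level of each Hox gene in CPM per kb of exon on a log colour scale, by cluster (rows) and paralog number (columns), for the 17 libraries of the time course and the 12 of the amputation set. White cells hold no gene or one not reported here, red frames mark the 4 genes not detected, and the highest levels lie in columns 7 to 13, led by Hoxc13 and Hoxa9.

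Paralog groups 9 to 13, the 5′ part of the clusters, held most of the Hox signal. Their share of the summed Hox CPM had a median of 85.4% in the time course (81.5 to 88.5% over libraries) and of 79.2% in the amputation set (76.7 to 81.2%). Groups 4 to 8 held 12.6% and 18.3%, and groups 1 to 3 held 1.86% and 2.42%. These shares are of counts and carry the length of each mRNA: Hoxa9 alone took 33.8% of all Hox counts in the time course and 30.6% in the amputation set, and Hoxc13 20.0% and 19.5%.

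By cluster, A held a median of 48.8% of the summed Hox CPM in the time course and 49.5% in the amputation set, and C held 33.8% and 37.6%. Cluster D took 12.3% and 7.61%, and cluster B 5.92% and 4.99%. These shares are not scaled by length either, so they do not rank the clusters by level per kb. Hoxa9 of cluster A has 5580 exon bases and Hoxc13 of cluster C 2461, and Hoxc13 had the higher level per kb of exon in both tables. The share of cluster C was 15.7% in sham day 21 replicate 1 and 15.9% in SNI day 7 replicate 2, and between 22.5% and 47.5% in the other libraries of the time course. Both are the libraries with low TMM factors.

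The tables were counted apart and hold different mice, so levels set across them can carry technical differences. Hoxa7 had a mean of 9.59 CPM in the time course and of 29.2 CPM in the amputation set, with no overlap of libraries between 6.49 to 12.9 and 24.2 to 32.8. Hoxc11 lay between 2.69 and 7.57 CPM in the time course and between 13.5 and 21.5 CPM in the amputation set. Amputated SNI digits of day 7 are in both tables, and there Hoxa7 held 8.47, 8.12 and 9.26 CPM in the time course against 24.2, 31.6 and 28.0 in the amputation set, so the gap stood within the same surgery and day. Batch and annotation cannot be told apart here, and tests were made only within a table.

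Spread over libraries differed from gene to gene. In the time course the coefficient of variation of the 35 detected genes had a median of 30.7%, lowest for Hoxa9 with 11.5% and Hoxd8 with 12.0%. Its highest value was 93.8%. For the amputation set the median was 21.6%, and Hoxa7 (8.43%) and Hoxa9 (9.01%) varied least.

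Hoxa9, which takes part in limb and blood development, had the lowest spread of all Hox genes in the time course. Sham libraries held 87.0, 78.1 and 80.9 CPM at day 7, 69.8, 82.2 and 73.2 at day 14 and 102 and 70.8 at day 21. SNI libraries held 71.5, 77.4 and 81.1 CPM at day 7, 65.4, 80.0 and 64.2 at day 14 and 74.1, 77.6 and 84.0 at day 21. The sham day 21 replicate 1 value is the highest of the time course, and sham and SNI libraries overlapped at every day. Amputated digits of the other table held 78.1, 105 and 97.5 CPM at day 7 and 80.0, 89.6 and 90.8 at day 14 and the unamputated ones 94.3, 91.8 and 102 CPM at day 7 and 89.6, 82.9 and 96.8 at day 14. The log2 difference was -0.04 ± 0.07 (SE) for amputated against unamputated and -0.11 ± 0.10 for SNI against sham, both averaged over days and neither past the test.

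Hoxc13 spread most among the highly expressed members. Its level in sham digits was 36.5, 34.9 and 50.4 CPM at day 7, 90.2, 78.8 and 63.0 at day 14 and 19.3 and 45.9 at day 21. In SNI digits it was 64.3, 6.33 and 29.0 CPM at day 7, 43.6, 49.4 and 15.0 at day 14 and 58.2, 34.3 and 30.8 at day 21. Every sham day 14 library lay above every sham day 7 and SNI day 14 library, and SNI day 7 replicate 2 was lowest of all. At day 14 the log2 difference of SNI against sham was -1.10 ± 0.64 (SE, adjusted p = 0.578 by edgeR's quasi-likelihood test), which did not pass.

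The summed level of 8 markers of nail and hair (hard keratins and Lhx2) ran from 110 CPM in SNI day 7 replicate 2 to 4261 CPM in sham day 14 replicate 1. These libraries had the lowest and highest Hoxc13. Others did not keep that order: sham day 21 replicate 1 held 2186 CPM with Hoxc13 at 19.3, and SNI day 14 replicate 1 held 1058 CPM with Hoxc13 at 43.6. None of the 8 was called, and their part in the Hoxc13 values was not tested. In the amputation set Hoxc13 lay at 43.6, 58.9 and 53.8 CPM at day 7 and 73.8, 58.0 and 61.9 at day 14 in amputated and 47.6, 55.4 and 59.2 CPM at day 7 and 58.9, 57.3 and 70.1 at day 14 in unamputated digits. Those groups overlapped at each day, with an average log2 difference of 0.00 ± 0.09 (SE).

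Hoxd13, a gene of the embryonic foot, held 12.8, 11.6 and 9.50 CPM at day 7, 11.2, 10.5 and 10.5 at day 14 and 14.2 and 13.8 at day 21 in sham digits. It held 16.2, 6.57 and 10.6 CPM at day 7, 15.1, 10.2 and 13.8 at day 14 and 12.8, 11.6 and 11.5 at day 21 in SNI digits. SNI day 7 holds both the lowest and the highest library, all SNI libraries of day 21 lie below both sham ones, and the log2 difference averaged over days was 0.01 ± 0.16 (SE). Digits of the amputation set held 11.0, 7.52 and 9.07 CPM at day 7 and 10.1, 7.04 and 9.63 at day 14 after amputation and 13.5, 11.7 and 8.99 CPM at day 7 and 10.8, 10.2 and 12.0 at day 14 without it. The difference of -0.31 ± 0.13 (SE) on average did not pass (adjusted p = 0.143, edgeR).

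Hoxa13, its partner in the foot, had a lower mean level per kb of exon, 1.15 against 4.79 CPM per kb in the time course and 2.35 against 4.08 in the amputation set. Sham values were 2.88, 2.98 and 1.91 CPM at day 7, 2.19, 2.33 and 2.62 at day 14 and 1.92 and 3.84 at day 21. SNI values were 4.46, 1.22 and 1.62 CPM at day 7, 3.69, 3.73 and 2.60 at day 14 and 3.63, 3.53 and 3.08 at day 21. Sham and SNI libraries overlapped at each day, with a log2 difference of 0.21 ± 0.25 (SE) averaged over days. Amputated digits held 6.04, 5.16 and 5.60 CPM at day 7 and 7.48, 5.42 and 7.36 at day 14 and unamputated digits 4.92, 6.31 and 6.16 CPM at day 7 and 5.44, 4.71 and 5.22 at day 14. At day 14 amputated digits were 0.40 ± 0.17 (SE) higher on the log2 scale without passing (adjusted p = 0.169, edgeR), and 1 amputated library lay among the unamputated ones.

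Hoxa10 and Hoxa11, which pattern the thigh and the lower leg in the embryo, were both read in the digits. Hoxa10 held 6.50, 8.56 and 8.49 CPM at day 7, 6.78, 6.69 and 5.15 at day 14 and 17.9 and 9.64 at day 21 in sham and 11.4, 10.5 and 8.60 CPM at day 7, 7.66, 9.98 and 9.17 at day 14 and 8.25, 11.7 and 14.3 at day 21 in SNI digits. Its sham day 21 replicate 1 value stands above all others, and at days 7 and 14 all SNI libraries lie above the sham ones (log2 differences 0.37 ± 0.26 and 0.52 ± 0.26, SE, not called by edgeR). Amputated digits held 7.64, 7.06 and 6.88 CPM at day 7 and 6.92, 6.08 and 6.71 at day 14 and unamputated ones 5.10, 6.88 and 5.63 CPM at day 7 and 5.93, 5.82 and 6.69 at day 14; at day 7 they do not overlap, though the nearest pair are both 6.88 CPM when rounded (log2 difference 0.29 ± 0.14, SE, adjusted p = 0.365, edgeR). Hoxa11 held 5.56, 5.60 and 4.74 CPM at day 7, 5.26, 4.92 and 5.75 at day 14 and 4.92 and 6.80 at day 21 in sham and 7.47, 3.16 and 4.45 CPM at day 7, 7.20, 5.48 and 6.53 at day 14 and 8.25, 6.08 and 5.96 at day 21 in SNI digits. Sham and SNI libraries overlapped at each day. After amputation it held 6.54, 4.62 and 3.81 CPM at day 7 and 4.46, 4.21 and 5.38 at day 14, against 4.08, 4.99 and 3.96 CPM at day 7 and 3.57, 4.15 and 4.05 at day 14 without amputation. Its 35.0% overlap in exon bases with the antisense gene Hoxa11os means that, with the strand setting of the counting not stated, reads of the pair may not be fully told apart.

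The other 5′ genes of cluster D had lower mean levels per kb of exon than Hoxd13, from 1.77 CPM per kb for Hoxd9 down to 0.234 for Hoxd12 in the time course and from 1.61 to 0.212 in the amputation set. Hoxd9 held 3.50, 3.81 and 3.54 CPM at day 7, 3.28, 3.32 and 2.84 at day 14 and 5.62 and 3.45 at day 21 in sham and 4.18, 2.37 and 2.77 CPM at day 7, 4.03, 4.76 and 3.65 at day 14 and 4.45, 3.97 and 4.61 at day 21 in SNI digits, where all SNI libraries of day 14 lie above the sham ones (0.40 ± 0.24 on the log2 scale, not called). Amputated digits held 3.77, 4.88 and 3.87 CPM at day 7 and 3.04, 4.09 and 3.47 at day 14 of it, and unamputated ones 2.78, 3.05 and 3.24 CPM at day 7 and 3.35, 2.58 and 3.13 at day 14. All amputated values lie above the unamputated ones at day 7 but not at day 14. The log2 difference averaged over days, 0.34 ± 0.13 (SE), did not pass (adjusted p = 0.103, edgeR). Hoxd10 held 2.72, 2.51 and 1.95 CPM at day 7, 2.21, 1.93 and 1.88 at day 14 and 2.20 and 1.90 at day 21 in sham and 2.40, 1.70 and 1.95 CPM at day 7, 1.84, 1.83 and 2.07 at day 14 and 1.97, 1.95 and 2.20 at day 21 in SNI digits. It showed 2.27, 2.52 and 2.16 CPM at day 7 and 1.71, 1.84 and 1.98 at day 14 in amputated and 2.65, 2.56 and 1.97 CPM at day 7 and 2.09, 2.24 and 2.72 at day 14 in unamputated digits. The amputated values lie below the unamputated ones at day 14 and among them at day 7.

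Hoxd11, used in the embryonic lower leg, held 4.09, 3.95 and 2.83 CPM at day 7, 2.94, 2.77 and 3.27 at day 14 and 3.80 and 4.00 at day 21 in sham and 3.48, 1.79 and 2.37 CPM at day 7, 4.36, 2.93 and 4.04 at day 14 and 3.70, 3.40 and 3.69 at day 21 in SNI digits. In the amputation set it held 1.84, 1.98 and 1.63 CPM at day 7 and 2.15, 1.75 and 1.98 at day 14 after amputation and 2.78, 2.40 and 1.88 CPM at day 7 and 2.00, 2.41 and 3.40 at day 14 without it. Amputated and unamputated libraries overlapped at each day. Hoxd12 had the lowest length-scaled level of these genes. Its values were 0.536, 0.693 and 0.587 CPM at day 7, 0.466, 0.458 and 0.722 at day 14 and 0.453 and 0.682 at day 21 in sham and 0.881, 0.243 and 0.465 CPM at day 7, 1.04, 0.592 and 0.611 at day 14 and 0.633, 0.493 and 0.513 at day 21 in SNI digits. Amputated digits gave 0.764, 0.203 and 0.507 CPM at day 7 and 0.561, 0.632 and 0.584 at day 14 and unamputated ones 0.468, 0.432 and 0.722 CPM at day 7 and 0.430, 0.511 and 0.625 at day 14. The groups overlapped at each day here as well.

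Hoxc10 and Hoxa7 complete the genes of highest length-scaled level. Hoxc10 held 13.3, 15.5 and 16.2 CPM at day 7, 14.1, 15.6 and 15.6 at day 14 and 4.43 and 14.8 at day 21 in sham and 12.8, 7.30 and 12.1 CPM at day 7, 12.7, 13.1 and 10.1 at day 14 and 13.1, 11.0 and 8.42 at day 21 in SNI digits, with sham day 21 replicate 1 the lowest. In the amputation set it held 14.1, 18.3 and 16.2 CPM at day 7 and 14.3, 18.4 and 16.4 at day 14 after amputation and 18.2, 15.6 and 20.2 CPM at day 7 and 16.7, 18.6 and 16.6 at day 14 without it. Its log2 differences of -0.21 ± 0.21 for SNI and -0.12 ± 0.09 for amputation (SE, averages over days) did not pass. Hoxa7, a gene of the embryonic trunk, held 12.9, 10.2 and 10.3 CPM at day 7, 9.32, 10.7 and 9.88 at day 14 and 6.49 and 10.9 at day 21 in sham and 8.47, 8.12 and 9.26 CPM at day 7, 10.3, 9.57 and 8.66 at day 14 and 9.73, 9.34 and 8.91 at day 21 in SNI digits. All 3 SNI day 7 libraries lay below the sham ones, by 0.37 ± 0.19 (SE) on the log2 scale, which did not pass (adjusted p = 0.301, edgeR). It held 24.2, 31.6 and 28.0 CPM at day 7 and 27.5, 26.1 and 30.0 at day 14 in amputated and 32.8, 30.9 and 31.5 CPM at day 7 and 29.4, 28.4 and 29.5 at day 14 in unamputated digits.

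Further detected members are given by their range over libraries, first in the time course and then in the amputation set. In cluster A, Hoxa2, a hindbrain gene, spanned 0 to 1.05 and 0.519 to 1.42 CPM. Hoxa3 spanned 0.262 to 3.26 and 2.60 to 4.78 CPM, Hoxa4 0.279 to 0.849 and 0.286 to 0.892, Hoxa5 0.480 to 4.04 and 2.22 to 5.30, and Hoxa6 0 to 0.893 and 0.301 to 0.870. The values at 0 are those of SNI day 7 replicate 2 for Hoxa2 and of 2 libraries of the time course for Hoxa6.

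In cluster B, Hoxb7 and Hoxb9 had the highest levels per kb of exon (means of 2.32 and 1.63 CPM per kb in the time course, 1.82 and 1.92 in the amputation set), spanning 1.92 to 6.94 and 2.40 to 5.98 CPM in the time course and 2.13 to 3.94 and 4.13 to 6.55 CPM in the amputation set. Hoxb2 spanned 0.754 to 2.08 and 0.764 to 1.36 CPM, Hoxb3 0.349 to 2.10 and 1.14 to 2.79, Hoxb4 1.02 to 3.04 and 1.03 to 2.26, Hoxb5 0.0304 to 0.572 and 0.301 to 1.22, Hoxb6 0.285 to 0.776 and 0.746 to 2.13, and Hoxb8 0.360 to 0.856 and 0.482 to 1.05. Of the exon bases of Hoxb3, 52.9% overlap its antisense gene Hoxb3os.

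In cluster C, Hoxc10 to Hoxc13 had the highest levels per kb of exon. Hoxc12, next to Hoxc13, spanned 0.628 to 6.91 and 4.56 to 8.76 CPM, Hoxc11 2.69 to 7.57 and 13.5 to 21.5, and Hoxc9 2.55 to 4.90 and 3.24 to 7.57. Hoxc6 spanned 0.760 to 2.59 and 1.75 to 4.72 CPM, Hoxc5 0.437 to 1.34 and 0.737 to 2.37, and Hoxc4 0.244 to 1.41 and 1.04 to 2.82. Per kb of exon the mean went from 17.9 for Hoxc13 to 0.336 for Hoxc4 in the time course and from 23.7 to 0.719 in the amputation set, though not in strict order. In cluster D, Hoxd8 spanned 3.92 to 6.35 and 3.00 to 4.55 CPM and Hoxd4 0.110 to 0.581 and 0.120 to 0.994. Exons of Hoxc5 overlap Hoxc10, and those of Hoxd3 overlap Hoxd4, in the annotation, so their counts are less certain. The protein-coding gene Gm28230, on the same strand, shares 53.1% of the exon bases of Hoxd3 and 39.1% of those of Hoxd4. How shared reads were counted is not given, and their part in the low counts of Hoxd3 and Hoxd4 was not tested.

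**Figure D2:**
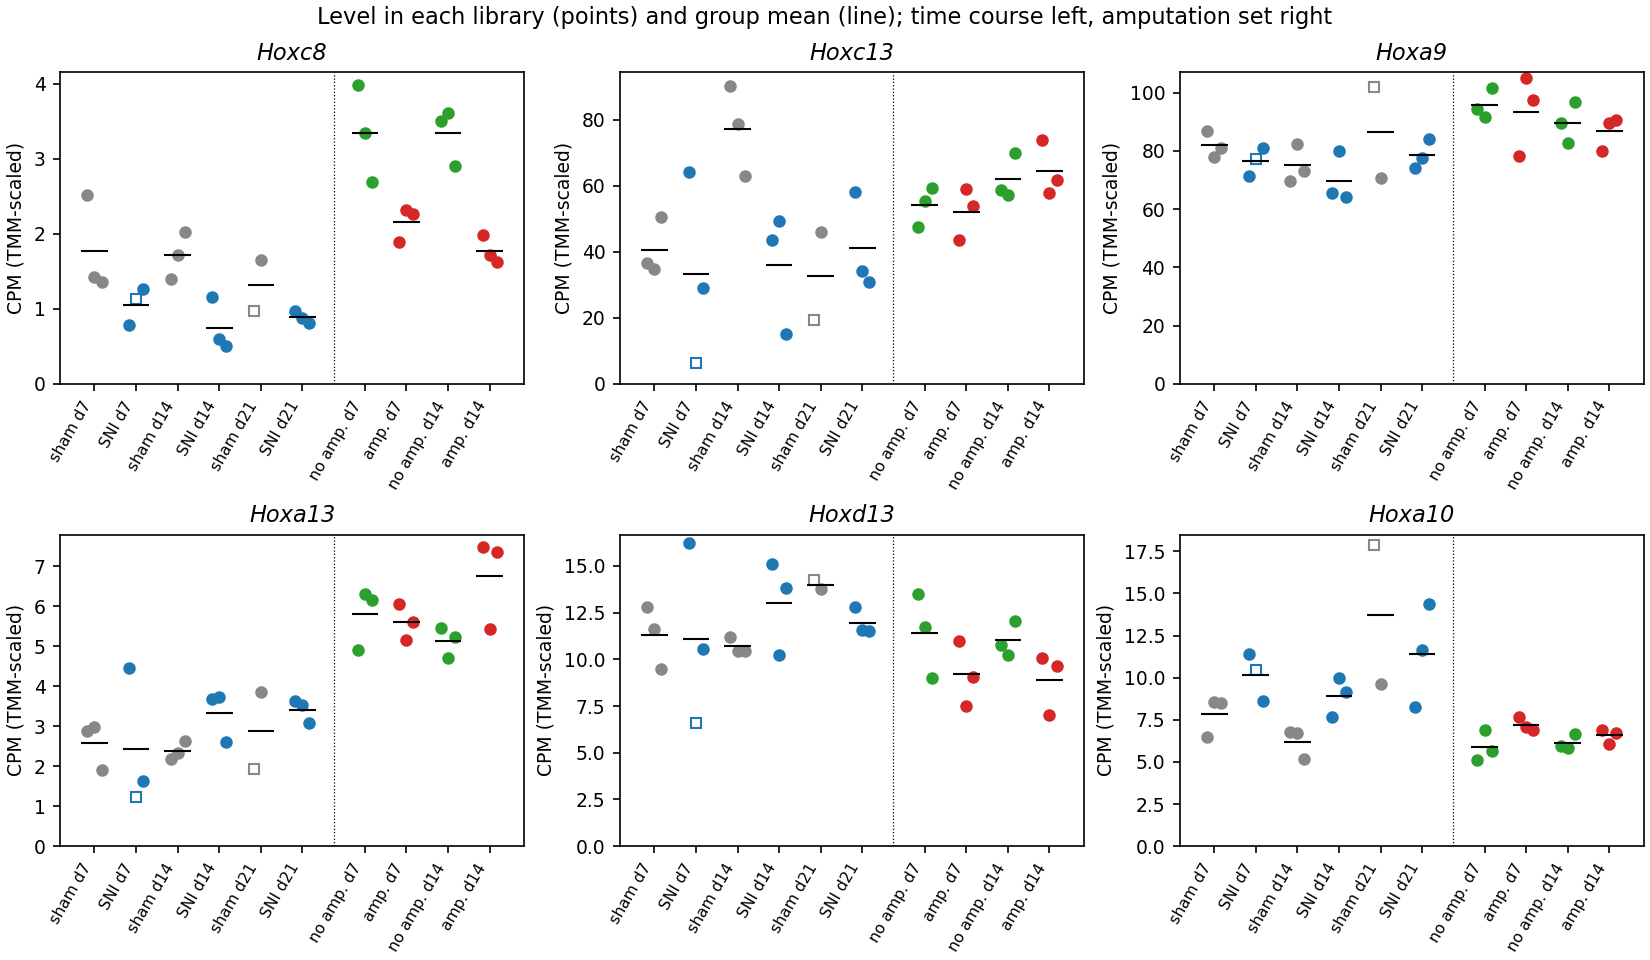
Level in CPM (linear axes from 0) of 6 Hox genes in every library, with the group mean as a line; d is days after amputation as labelled, amp. and no amp. are SNI digits with and without amputation, and hollow squares are the 2 libraries with a TMM factor under 0.8. Hoxc8 is lower in every amputated than in every unamputated library of the same day, while Hoxa9 and Hoxd13 overlap between most groups and SNI day 7 replicate 2 has the lowest Hoxc13.

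The windows upstream of the start sites were set beside these levels at the ends of cluster D, where the 5′ gene was read in every library and the 3′ gene in almost none. RefSeq sequences (GRCm38.p6) were at hand for 22 of the 39 genes. The 250 bases upstream of Hoxd13 (chr2:74667975-74668224, plus strand) and of Hoxd1 (chr2:74762730-74762979, plus strand) read as follows, 5′ to 3′, with CG dinucleotides in capitals.
Hoxd13: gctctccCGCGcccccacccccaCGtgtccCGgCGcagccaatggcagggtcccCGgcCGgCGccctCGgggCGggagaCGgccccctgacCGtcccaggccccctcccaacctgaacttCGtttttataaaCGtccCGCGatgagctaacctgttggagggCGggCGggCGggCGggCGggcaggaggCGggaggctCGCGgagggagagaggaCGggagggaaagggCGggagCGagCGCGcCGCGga
Hoxd1: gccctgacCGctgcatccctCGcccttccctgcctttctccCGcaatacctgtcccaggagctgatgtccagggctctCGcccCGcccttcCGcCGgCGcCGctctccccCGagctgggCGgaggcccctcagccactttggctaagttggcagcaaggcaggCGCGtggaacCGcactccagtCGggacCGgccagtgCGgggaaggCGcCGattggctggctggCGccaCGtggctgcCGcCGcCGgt
The Hoxd13 window holds 31 CG and the Hoxd1 window 24, above the median of 6 over the 32851 windows of all genes. Over the 24 windows of Hox genes the median was 12.5 CG. Both windows are thus rich in CG, although Hoxd13 had a mean of 11.9 CPM in the time course and Hoxd1 a single count; methylation and chromatin were not measured.

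Amputated SNI digits were compared with SNI digits left whole, 7 and 14 days on. Of the 34 Hox genes tested edgeR called 1, Hoxc8, which fell on average over both days and at day 14; DESeq2 also called Hoxb6 and Hoxc9 on average and Hoxb6 at day 14. Hoxc8 is a gene of the middle of cluster C, known for patterning the thoracic skeleton and the motor neurons of the forelimb. On average 1062 of all 17475 genes tested (6.08%) were called lower and 11.8% were called in either direction, so the 1 of 34 Hox genes (2.94%) is below the background share. At day 14 the background was 1.44% called lower and 2.75% in all.

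Hoxc8 held 1.89, 2.31 and 2.27 CPM at day 7 and 1.99, 1.72 and 1.62 at day 14 in amputated digits. Unamputated digits held 3.98, 3.35 and 2.69 CPM at day 7 and 3.51, 3.61 and 2.91 at day 14. Every amputated library lay below every unamputated one at both days. Group means were 2.16 ± 0.23 against 3.34 ± 0.65 CPM at day 7 and 1.77 ± 0.19 against 3.34 ± 0.38 CPM at day 14 (SD, n = 3 each). The average log2 difference was -0.77 ± 0.14 (SE), 1.71-fold lower, with an adjusted p of 0.00836 by edgeR's quasi-likelihood test.

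At day 14 it was -0.91 ± 0.20 (adjusted p = 0.0413) and at day 7 -0.63 ± 0.20 (adjusted p = 0.160, not called). These values rest on 50 to 153 counts per library. The difference between the days, -0.28 ± 0.28 (SE), was not called (adjusted p = 0.851, edgeR). In bulk tissue, fewer cells of a type and less RNA per cell cannot be told apart.

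The average call held with each of the 12 libraries left out in turn, with adjusted p from 0.00617 to 0.0269. The day 14 call was lost without amputated day 7 replicate 2, amputated day 14 replicates 2 or 3, unamputated day 7 replicates 1 or 2, or unamputated day 14 replicates 1, 2 or 3, with adjusted p of 0.0520 to 0.134; over all 12 such fits the log2 difference lay between -1.02 and -0.85. Leaving out amputated day 7 replicate 3 brought Hoxc6, Hoxc9 and Hoxa5 to the average calls, 4 among 2038 of all genes. Leaving out unamputated day 7 replicate 3 brought Hoxb6 and Hoxc9, 3 among 2428, and Hoxb6 at day 14, 2 among 704.

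Neighbours of Hoxc8 in cluster C had differences of the same sign without passing. Hoxc9 differed by -0.44 ± 0.15 (SE) on the log2 scale averaged over days (adjusted p = 0.0688) and Hoxc6 by -0.42 ± 0.22 (adjusted p = 0.228, edgeR). Away from it, Hoxc13 differed by 0.00 ± 0.09 and Hoxc4 by 0.04 ± 0.22. Of the 9 genes of the cluster 7 had a negative difference, with a median of -0.19. Over all Hox genes tested 20 of 34 were negative with a median of -0.10, beside 48.1% negative and a median of 0.01 over all genes.

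In cluster B, Hoxb6, another mid-cluster gene, had the next smallest p. It held 0.966, 1.19 and 1.01 CPM at day 7 and 0.935, 0.783 and 0.746 at day 14 in amputated and 2.13, 1.35 and 0.809 CPM at day 7 and 1.91, 1.68 and 1.47 at day 14 in unamputated digits. The groups overlapped at day 7 and not at day 14. Its average difference was -0.73 ± 0.22 (SE, adjusted p = 0.0503, edgeR), just outside the threshold.

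At day 14 the libraries of the groups did not overlap for 10 of the 34 Hox genes lower after amputation (29.4%, beside 16.7% of all genes) and for 1 higher, Hoxa11 (2.94%, beside 15.9%). The 10 were Hoxa3, Hoxa5, Hoxa6, Hoxb6, Hoxc6, Hoxc8, Hoxc9, Hoxc11, Hoxd10 and Hoxd13. At day 7, Hoxc8 was the only one of 34 wholly lower (2.94%, beside 8.86%), and Hoxa10, Hoxb3 and Hoxd9 were wholly higher (8.82%, beside 10.4%). At both days together 1 was wholly lower, Hoxc8 (beside 3.42% of all genes), and 0 wholly higher (beside 4.29%). No Hox gene was called at day 7 by edgeR, beside 1.35% of all genes (0.601% higher and 0.75% lower); 3 had an unadjusted p under 0.05 (15.1% of all genes did). Those with the smallest p after Hoxc8 were Hoxd9 (log2 difference 0.47 ± 0.19, SE), Hoxb3 (0.53 ± 0.24) and Hoxc9 (-0.43 ± 0.21). DESeq2 also called 0 Hox genes at day 7.

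**Figure D3:**
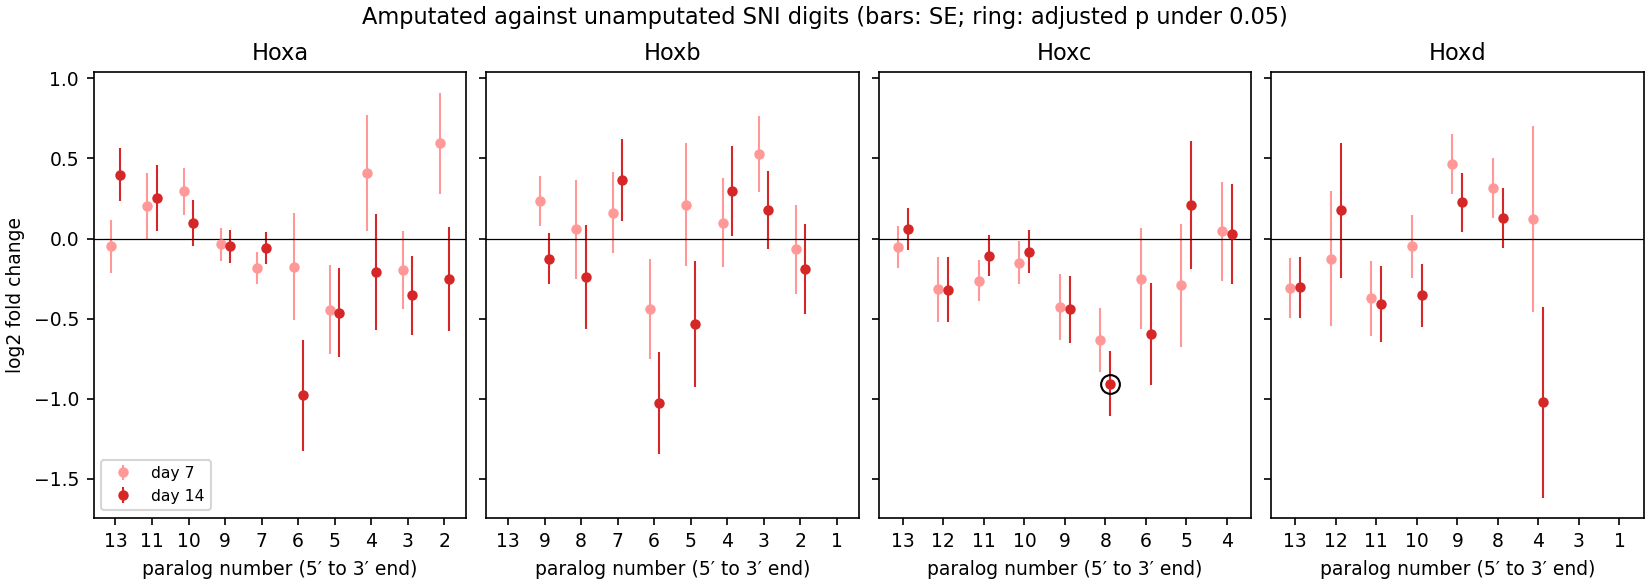
Log2 fold change (vertical axis) of amputated against unamputated SNI digits for each reported Hox gene at day 7 and day 14, by cluster and in genomic order from paralog 13 to 1; bars are SE and a ring marks an adjusted p under 0.05. Hoxc8 at day 14 is the one ringed point, at -0.91, and most points of paralogs 9 to 13 lie within 0.5 of 0.

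Hoxc8 is a classic target of the microRNA miR-196, whose genes lie inside the Hox clusters, so the seed matches in the 3′ UTRs were read. A seed is bases 2 to 8 of a miRNA, in capitals in the mature sequences from RefSeq.
mmu-miR-196a-5p: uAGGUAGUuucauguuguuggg
mmu-miR-196b-5p: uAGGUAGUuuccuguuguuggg
The match ACTACCT was searched on the mRNA strand of 3′ UTRs of GENCODE M21. It occurred in 9 of the 39 Hox genes and in 5.93% of the 21685 UTRs searched. The 2 matches of Hoxc8 and the single match of Hoxb6 are printed because these genes had the smallest p after amputation, with the match in capitals.
Hoxc8, match 1: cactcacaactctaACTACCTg
Hoxc8, match 2: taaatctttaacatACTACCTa
Hoxb6: tggaaggagcacatACTACCTa
Hoxa7 holds 4 matches, more than any other Hox gene, and Hoxa9 holds 1. Their average log2 differences after amputation were -0.12 ± 0.07 and -0.04 ± 0.07 (SE), against -0.77 for Hoxc8. Of the 7 tested genes with a match 5 had a negative difference, with a median of -0.12, and of the 27 without one 15 had, with a median of -0.09. The miRNAs themselves were not measured, and a match is no evidence of pairing. Sites that differ from ACTACCT were not searched, so a gene without a match may still be a target.

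Markers of other cell types changed with amputation and are given beside the Hoxc8 value. Of 6 epidermal markers 3 were lower (Krt1, Krt10 and Lor, of the outer layers) and 0 higher on average over days; their summed level was 46126 to 51060 CPM in amputated and 68415 to 78781 CPM in unamputated digits at day 7, and 54612 to 58599 against 62487 to 65194 CPM at day 14. Of 4 Schwann cell markers 2 were lower, among them Mbp of the myelin sheath, with summed levels of 62.3 to 145 against 207 to 213 CPM at day 7 and 53.9 to 55.0 against 201 to 278 CPM at day 14. Of 5 osteoblast markers 2 were higher (Dmp1 and Ibsp), with sums of 929 to 2064 against 875 to 1676 CPM at day 7 and 1262 to 8191 against 1135 to 1450 CPM at day 14. Of 3 endothelial markers 2 were higher, with sums of 133 to 152 against 80.8 to 117 CPM at day 7 and 101 to 132 against 88.3 to 108 CPM at day 14.

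Of 6 markers of limb mesenchyme and fibroblasts, the cells in which Hox genes are best known, 0 were called (Col1a1 is on this list and the osteoblast one); their sums were 1102 to 2270 against 1097 to 1866 CPM at day 7 and 1416 to 8176 against 1300 to 1650 CPM at day 14. Col1a1 made up most of this sum and of the osteoblast sum. At day 14 it held 7901, 1188 and 6832 CPM in amputated and 1365, 1080 and 1387 CPM in unamputated digits. The next highest mesenchyme marker, Dpt, held 87.2, 86.2 and 109 against 92.2, 78.7 and 96 CPM. No marker of these lists was at 0 in all libraries of a group. Their part in the Hoxc8 result was not tested.

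With SNI against sham, the time course addresses what a cut nerve does to gene expression in the regrowing digit. No Hox gene was called at day 7, 14 or 21 or averaged over days, where edgeR called 0% of the 16084 genes tested. At an unadjusted p under 0.05 stood 3, 3, 0 and 6 of the 35 tested Hox genes, beside 13.6%, 5.93%, 2.2% and 14% of all genes. DESeq2 called Hoxc8 on average (adjusted p = 0.0334), among 163 genes in all, and no Hox gene at a single day.

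Hoxc8 had the smallest p on average. Sham digits held 2.52, 1.43 and 1.36 CPM at day 7, 1.40, 1.72 and 2.02 at day 14 and 0.977 and 1.65 at day 21. SNI digits held 0.781, 1.13 and 1.26 CPM at day 7, 1.15, 0.592 and 0.502 at day 14 and 0.973, 0.876 and 0.806 at day 21. Within each day all SNI libraries lay below all sham libraries, at day 21 narrowly (0.977 against 0.973 CPM) and against 2 sham libraries. The log2 difference averaged over days was -0.83 ± 0.22 (SE, adjusted p = 0.337, edgeR) and without both libraries of low TMM factor -0.94 ± 0.23 (adjusted p = 0.0743). Of the 35 Hox genes 1 was separated in this way at all 3 days with lower values in SNI (2.86%), beside 0.112% of all genes, and 0 with higher values, beside 0.137%. Within single days, 9 Hox genes lay wholly lower in SNI at day 7, 8 at day 14 and 5 at day 21, beside 23.8%, 12.2% and 3.3% of all genes, and 1, 3 and 0 wholly higher, beside 13.7%, 11% and 4.36%.

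Hoxd4, Hoxb5 and Hoxa5, genes of the 3′ side known from hindbrain, shoulder and lung, followed in order of p. Hoxd4 differed by -1.01 ± 0.32, Hoxb5 by -1.07 ± 0.36 and Hoxa5 by -0.90 ± 0.34 (log2, SE, averages over days, all with adjusted p of 0.337 by edgeR). Hoxb5 held 0.536, 0.387 and 0.461 CPM at day 7, 0.489, 0.572 and 0.409 at day 14 and 0.0698 and 0.449 at day 21 in sham and 0.160, 0.0304 and 0.0887 CPM at day 7, 0.445, 0.129 and 0.196 at day 14 and 0.292, 0.301 and 0.171 at day 21 in SNI digits. SNI lies wholly below sham at day 7 only. At 1 to 30 counts per library its level is poorly fixed.

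At day 7 Hoxb5 (-2.21 ± 0.64, log2, SE) had the smallest p, and Hoxd4 (-1.27 ± 0.56) and Hoxc5 (-0.67 ± 0.31) were also among the 4 smallest, all with an adjusted p of 0.301 by edgeR. At day 14 the smallest p belonged to Hoxc8 (-1.18 ± 0.37), Hoxd4 (-1.41 ± 0.53), Hoxb3 (-1.09 ± 0.50) and Hoxa5 (-1.13 ± 0.56), with 0.578. At day 21 Hoxc8 (-0.58 ± 0.40), Hoxc6 (-0.45 ± 0.42), Hoxc11 (0.33 ± 0.33) and Hoxb4 (-0.36 ± 0.37) came first, with 1. Hoxc11 turned to -0.14 at day 21 without sham day 21 replicate 1.

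By sign, 25 of 35 Hox genes were lower in SNI on average (median -0.17), beside 48.5% of all genes (median 0.01). The sign was negative for 9 of 9 genes of cluster C, 7 of 11 of cluster A, 6 of 8 of cluster B and 3 of 7 of cluster D. By position it was 13 of 15 in groups 4 to 8 (median -0.27) and 9 of 15 in groups 9 to 13 (median -0.09). Without both libraries of low TMM factor the counts over all Hox genes, in each cluster and in these position groups were the same, and the medians were -0.23, -0.43 in groups 4 to 8 and -0.02 in groups 9 to 13. Genes of a cluster share cells and libraries, so these are counts, not a test. Libraries of SNI day 14, none of low TMM factor, also differed among themselves. Hoxa5 held 2.50 CPM in replicate 1 and 0.875 and 0.480 in replicates 2 and 3, and Hoxa3 2.22, 0.643 and 0.262. Hoxa9 did not follow this order, with 65.4, 80.0 and 64.2 CPM. The part of such libraries in the signs was not tested.

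**Figure D4:**
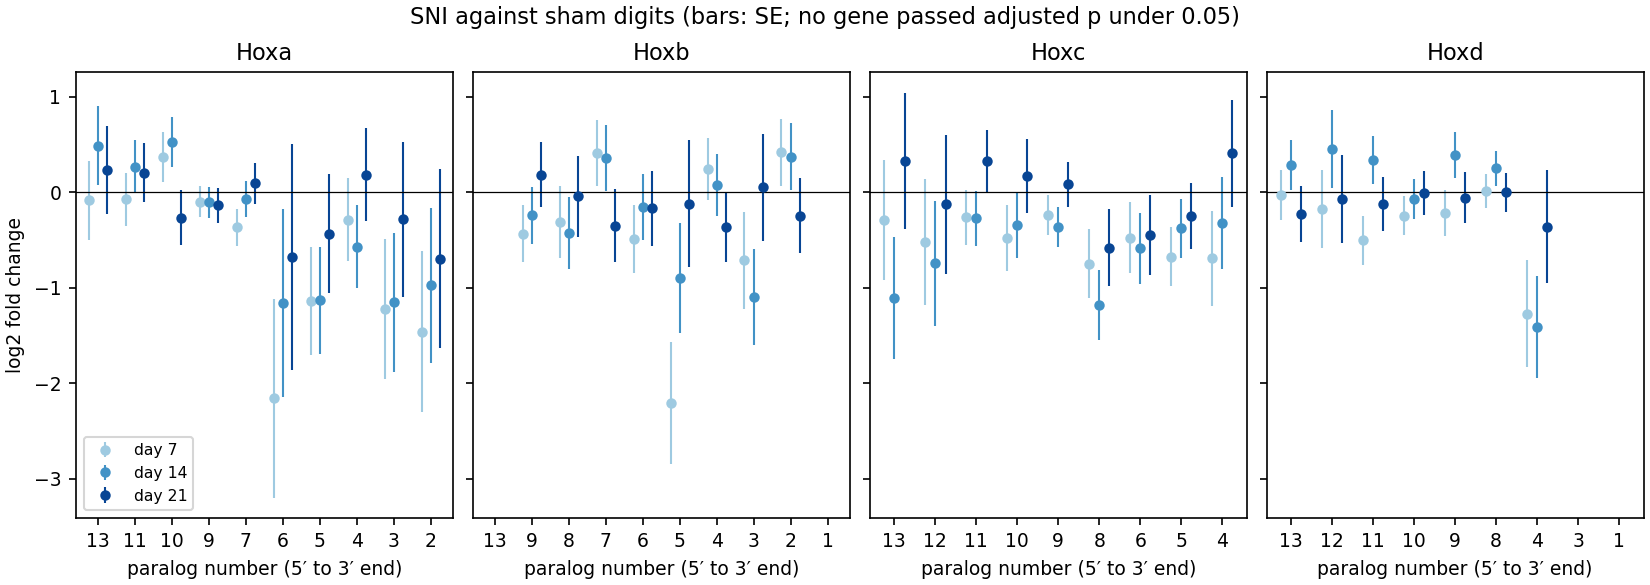
Log2 fold change (vertical axis) of SNI against sham digits for each reported Hox gene at days 7, 14 and 21, by cluster and in genomic order from paralog 13 to 1; bars are SE. No point passed the test, and all 9 genes of cluster C lie below 0 at days 7 and 14.

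Summed marker levels of other cell types also differed between these libraries, with 0 of the markers called. The summed level of 7 neutrophil and marrow markers was 32.9 to 44.4 CPM in sham and 77.0 to 14598 CPM in SNI digits at day 7, 9.06 to 15.3 against 49.4 to 222 CPM at day 14 and 45.5 to 263 against 12.6 to 71.0 CPM at day 21. That of 4 Schwann cell markers was 95.5 to 228 against 27.9 to 97.1 CPM, 175 to 207 against 95.6 to 219 CPM and 160 to 185 against 33.2 to 41.5 CPM. The 6 epidermal markers summed to 58990 to 67446 against 44351 to 50750 CPM at day 7, 66128 to 72826 against 42716 to 62077 CPM at day 14 and 32536 to 58797 against 38271 to 58843 CPM at day 21. The 14598 CPM of neutrophil and marrow markers was that of SNI day 7 replicate 2 alone, a library of low TMM factor. The other SNI day 7 libraries held 77.0 and 144 CPM. None of the markers was at 0 in all libraries of a group, and their part in the Hox values was not tested.

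Whether the SNI difference changed with the day was tested by an interaction. edgeR and DESeq2 called 0 Hox genes; edgeR called 0% of all genes. At an unadjusted p under 0.05 stood 0 Hox genes and 3.66% of all genes, and Hoxd11, Hoxb5 and Hoxa10 were among the 4 genes of smallest p (adjusted p = 0.712 each, edgeR). The interaction of amputation with day also gave 0 Hox genes and 0% of all genes, with 0 Hox genes and 6.25% of all genes at an unadjusted p under 0.05; Hoxa13 (0.45 ± 0.23), Hoxa2 (-0.85 ± 0.45), Hoxa6 (-0.80 ± 0.48) and Hoxb9 (-0.36 ± 0.22, log2, SE) came first.

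No Hox gene was called for change with time. Within sham digits 0 were called at day 14 against day 7 and at day 21 against day 7, beside 0% of all genes each (edgeR, likewise 0 Hox genes by DESeq2). At an unadjusted p under 0.05 stood 1 Hox gene in each, beside 1.96% and 20.3% of all genes. Among the 4 genes of smallest p were Hoxc13 (0.93 ± 0.64, log2, SE), Hoxc9 (0.30 ± 0.21) and Hoxa10 (-0.34 ± 0.26) at day 14. At day 21 they were Hoxa10 (0.81 ± 0.29), Hoxb7 (0.80 ± 0.38), Hoxb9 (-0.72 ± 0.34) and Hoxc11 (-0.67 ± 0.33). Sham day 21 rests on 2 libraries that differ: with replicate 2 left out, so that the library of TMM factor 0.633 stood alone, 11 Hox genes were called (2 higher, 9 lower) among 8331 of all genes, and 3 in the interaction of SNI with day.

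Within SNI digits 0 Hox genes were called at day 14 or day 21 against day 7, beside 0% of all genes, and 2 and 1 had an unadjusted p under 0.05, beside 3.03% and 3.87%. Hoxd11 (0.56 ± 0.25), Hoxb5 (1.40 ± 0.65), Hoxd9 (0.41 ± 0.24) and Hoxb6 (0.59 ± 0.36, log2, SE) had the smallest p at day 14. At day 21 they were Hoxc9 (0.48 ± 0.21), Hoxb5 (1.36 ± 0.66), Hoxd9 (0.48 ± 0.24) and Hoxd11 (0.49 ± 0.25). All 7 tested genes of cluster D were positive at day 21 (median 0.18, beside 0.00 over all genes), as counts and not as a test. The day 7 group holds replicate 2, a library of low TMM factor. It had the lowest levels of the time course for Hoxd9 to Hoxd13, though not for Hoxd4 and Hoxd8. For Hoxd13 it held 6.57 CPM, beside 16.2 and 10.6 in the other SNI day 7 libraries. Its part in these signs was not tested.

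In the amputation set, day 14 against day 7 called 0 of 34 Hox genes in amputated digits, beside 0.607% of all genes, and 0 in unamputated digits, beside 0.303%. At an unadjusted p under 0.05 stood 2 and 1, beside 13.3% and 4.97%, and DESeq2 called 0 in each. Amputated digits had Hoxb9 (-0.38 ± 0.16), Hoxc13 (0.31 ± 0.13), Hoxb3 (-0.46 ± 0.24) and Hoxb8 (-0.57 ± 0.32, log2, SE) first by p. Unamputated digits had Hoxc5 (-0.89 ± 0.40), Hoxc13 (0.20 ± 0.13), Hoxa7 (-0.12 ± 0.10) and Hoxa4 (0.43 ± 0.37).

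Hox proteins bind DNA with cofactors of the Pbx, Meis and Prep (Pknox) families, and all 9 listed were tested. Averaged over days, amputation gave log2 differences for Pbx4 (-0.39 ± 0.29, SE), Meis2 (0.30 ± 0.24) and Pknox2 (0.26 ± 0.23) that did not pass. SNI called 0 of 9, with Meis1 first (-0.48 ± 0.24, log2, SE, average over days).

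Polycomb and Trithorax proteins keep Hox clusters silent or open. Of 27 such chromatin regulators 1 was called, lower after amputation on average (6.08% of all genes were): Kmt2b, a histone H3 lysine methyltransferase of the Trithorax side. It held 57.2, 63.7 and 85.3 CPM at day 7 and 65.7, 47.9 and 64.7 at day 14 in amputated and 99.2, 89.3 and 63.5 CPM at day 7 and 78.1, 104 and 98.2 at day 14 in unamputated digits, which overlapped at day 7 and not at day 14. The log2 difference was -0.47 ± 0.14 (SE, adjusted p = 0.0488, edgeR). Ring1 (0.21 ± 0.07), Cbx6 (0.20 ± 0.07) and Pcgf2 (-0.24 ± 0.09), all of Polycomb complexes, came next and were not called. SNI called 0 of 27, with Kmt2a (-1.22 ± 0.49) and Kmt2b (-1.35 ± 0.55) first. At day 14 Kmt2b held 62.8, 50.4 and 53.8 CPM in sham and 46.7, 7.38 and 6.31 CPM in SNI digits, so SNI libraries differed widely among themselves.

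Limb position genes other than Hox were led by Lhx9, a LIM homeodomain gene of limb mesenchyme, the 1 of 26 tested that was called, higher after amputation on average (5.71% of all genes were). It held 1.30, 2.08 and 2.53 CPM at day 7 and 2.59, 2.02 and 2.11 at day 14 in amputated and 0.936, 1.32 and 1.27 CPM at day 7 and 1.29, 1.36 and 1.82 at day 14 in unamputated digits, with 1 amputated library of day 7 among the unamputated ones. The log2 difference was 0.66 ± 0.19 (SE, adjusted p = 0.0445, edgeR). Irx3 (-0.21 ± 0.07) and Shh (-0.56 ± 0.19) followed without a call, and SNI called 0 of 26, with Tbx3 first (-0.94 ± 0.35). The calls of Kmt2b and Lhx9 were lost in 9 and 10 of the 12 fits with 1 library left out, with adjusted p of up to 0.116 and 0.108.

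Genes of limb type are given as values only, since they were chosen after their values were seen. Tbx4 and Pitx1, which mark the embryonic hindlimb, were read in every library, at 1.92 to 9.66 and 0.767 to 12.2 CPM in the time course and 5.48 to 8.89 and 1.51 to 3.41 CPM in the amputation set. Tbx5, known as a forelimb gene, was also read in every library, at 0.608 to 3.64 and 1.68 to 3.39 CPM.

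Noncoding RNAs of the clusters were listed with 14 members, of which 5 were tested in the time course and 8 in the amputation set. None was called for SNI or amputation (0 of 5 and 0 of 8 on average, edgeR; at an unadjusted p under 0.05 also 0 and 0). Hotair, transcribed against the 5′ end of cluster C, lay between 0.882 and 2.73 CPM in the time course and between 1.68 and 4.32 CPM in the amputation set. Hottip, at the 5′ tip of cluster A, lay between 0.183 and 1.45 CPM and between 0.145 and 0.681 CPM. Haglr, a neighbour of Hoxd1, was at 0 in 15 of 17 and in 12 of 12 libraries.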

How the data were processed

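RNA was poly(A)-selected and sequenced from stranded libraries (500 ng RNA, 9 PCR cycles), per the labels' protocols. The authors deposited 2 tables of raw gene counts, one for the time course (17 libraries, 24411 symbols) and one for the amputation set (12 libraries, 55487 Ensembl identifiers, of which 55141, or 99.4%, were given symbols here). The build was GRCm39 per the submitters' processing notes; aligner, counter and strand setting: not given in the sources used here. Samples are described as biological replicates from separate animals. Replicate numbers do not pair libraries by the labels or by the data.

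Each table was fitted apart with edgeR 4.0.16 (R 4.3.3): filterByExpr with its defaults (minimum count 10, minimum total 15), TMM scaling, one mean per group over all groups, robust quasi-likelihood F tests, Benjamini-Hochberg adjustment over all tested genes and a threshold of 0.05. All adjusted p-values in the text come from this fit unless DESeq2 is named. The SE is the log2 fold change divided by the root of F. The average over days weights each day equally. Spread between replicates, as the common biological coefficient of variation of the fit, was 0.393 in the time course and 0.17 in the amputation set. The filter left 16084 and 17475 genes, with 35 and 34 Hox genes; 1 detected Hox gene did not pass it in the amputation set. Genes were scaled by the union of their GENCODE M21 exons (GRCm38). Alternatives were RLE size factors, no filter, DESeq2 1.42.0, a replicate block, only the groups compared, leaving out each library, and leaving out both libraries of low TMM factor. Tests were checked on simulated counts.

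The members and all gene lists were chosen with earlier results of these data known. Values of some genes that enter the counts and sums are not reported here. By rule, values in every library are printed for called members, for groups 9 to 13 of clusters A and D, and for the 4 highest length-scaled levels of each table; up to 4 uncalled genes with the smallest p are named per comparison, and of other lists the called genes and up to 4 more, apart from the genes not reported here.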

Additional observations from a re-analysis of the deposited data

How the results depend on the processing

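The average Hoxc8 difference after amputation kept its direction and its call in all 16 alternatives (log2 difference -0.83 to -0.70). At day 14 the call held in 8 of 17 and was lost in 9, among them 8 of the 12 fits without 1 library and the fit with the replicate number as a block (-0.91, adjusted p = 0.0864, edgeR). The count of Hox genes called after amputation averaged over days was 1, against 2 with RLE size factors (Hoxb6 added; 2057 of all genes called), 3 with DESeq2 (Hoxb6 and Hoxc9 added; 3080 of all genes) and 1 to 4 with 1 library left out; at day 14 it was 1, against 2 with DESeq2 (Hoxb6 added; 1878 of all genes), 0 with the replicate block and 0 to 2 with 1 library left out. For SNI against sham averaged over days it was 0 and with DESeq2 1 (163 of all genes). With 1 library left out it ranged from 0 to 3 for the SNI effect by day and from 0 to 11 for sham day 21 against day 7, the upper values without sham day 21 replicate 2, which leaves 1 library in that group, assumed to vary like the others. The sign of Hoxc11 for SNI against sham at day 21 turned from 0.33 to -0.14 without sham day 21 replicate 1 (fits without 1 library spanned -0.14 to 1.04) and to -0.14 with both libraries of low TMM factor left out. The cause was not tested in any of these.

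Libraries of the same replicate number deviated from their group means with correlations of -0.787 to 0.773 (median 0.049) in the time course. In the amputation set they were -0.203 to 0.143 (median -0.013). Libraries of different numbers gave -0.747 to 0.787 (median -0.052) and -0.13 to 0.181 (median 0.005), much the same ranges, so the numbers do not pair them. In the time course some libraries thus deviated alike or oppositely whatever their number, and the source of this was not tested. The block changed no count of called Hox genes other than that of day 14. Few counts limit the 3′ genes most: Hoxa6, Hoxb5 and Hoxd4 had at most 48 counts in any library.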
